A study of Mus musculus with 20 samples.

Results

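Seminal vesicle epithelium that carried both an inducible construct and the hairpin labelled UTY_sh was compared with seminal vesicle epithelium that carried neither. Each side had 4 RNA-seq libraries out of 20 in the series. The comparison covered the 13456 of 23284 genes in the table that had a log2 value of at least 5 in at least 4 of the 20 libraries. No gene passed the test, and most genes were measured closely enough that a 2-fold difference lay outside their 95% interval.

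All libraries came from tissue recombinants, grafts in which mouse epithelial cells are grown together with mesenchyme of the rat urogenital sinus, which instructs epithelium to form prostate. The donors of the epithelium were 2 months old. The labels give C57Bl/6J for them in one place and a hybrid of 129/SvImJ and C57Bl/6J in another, and the rats were Sprague Dawley. The protocol text puts harvest 3 months after implantation and doxycycline in the drinking water for 3 months, and gives both for all samples, the unmodified grafts included. The group called SVE here is unmodified seminal vesicle epithelium. The group called construct+UTY_sh here received a doxycycline-inducible construct from an altered pTRIPZ vector and a hairpin named for Uty. The groups called construct and UTY_sh received one of these alone, and PE is unmodified prostate epithelium, again with 4 libraries each. The treatment text names a wild-type and a point-mutant form of the protein that the construct encodes, and the labels do not state which of them these libraries carry. Nor is it stated whether a group's 4 libraries are from different animals, so a p-value measures only the spread between these libraries, which may be technical.

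The prostate grows from the urogenital sinus, and the seminal vesicle from the Wolffian duct. Both depend on androgens, yet they secrete different proteins: the mouse prostate makes probasin and beta-microseminoprotein, and the seminal vesicle makes the Svs proteins that form the copulatory plug. UTY is a Y-linked protein related to the H3K27 demethylase KDM6A, and EHMT2, also called G9a, is a histone H3K9 methyltransferase. The series' title sets these proteins in a network that controls prostate differentiation. The comparison therefore asks how seminal vesicle grafts given both vectors differ from unmodified ones. Whether the construct was delivered and induced in the grafts with both vectors was not tested here. A blocked effect of the construct and an absent one therefore cannot be told apart.

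The libraries differed in ways that their labels do not give. Estimated depth was 20270000 to 25010000 reads in SVE and 24050000 to 29820000 in construct+UTY_sh, a difference in means that did not pass a two-sided exact permutation test (p = 0.2, adjusted 0.4 over 2 tests). The 50 most abundant genes took 63.8% of the reads in each group on average. Prostate transcripts were abundant in some libraries of both groups: SVE replicate 1 and construct+UTY_sh replicate 4, with UTY_sh replicate 3, are called the libraries rich in Pbsn, and results are given with and without them. Each is the library of its group with the most Pbsn, and no level was set. Libraries kept in include UTY_sh replicate 2 with Pbsn at 13.81 and construct+UTY_sh replicate 3 at 12.56. By the 620 genes with a value above 11 in every library, 9 of the 12 libraries of the SVE, UTY_sh and construct+UTY_sh groups were closest to a library of another group. All 4 construct+UTY_sh libraries were among them: replicates 1, 2 and 3 were closest to UTY_sh replicates 4, 1 and 2, and replicate 4 was closest to SVE replicate 1. Each library had more candidates outside its group than inside it, so most would cross groups if the groups did not differ. Replicate 3 of the construct group and replicate 3 of PE stood apart from their groups for the prostate gene Sbp. It measured 18.48, 18.53, 8.46 and 18.22 with the construct alone and 5.63, 7.35, 19.38 and 8.14 in PE. Msmb measured 14.86, 15.02, 14.25 and 14.85 with the construct alone and 14.07, 14.38, 15.35 and 14.31 in PE. How many genes share this layout was not counted. Whether any library holds material of another, or belongs to another group than its label gives, was not tested. The small differences, the Pbsn values and the comparisons with the construct alone and PE below are those of the libraries as labelled. The grafts were measured in bulk, so fewer cells of a type and less RNA per cell cannot be told apart. How reads from the rat mesenchyme were treated is not given in the sources used here, and their part in the values was not tested.

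The promoters of the secretory genes are shown first, since the sections below turn on these genes and androgens drive both organs. Of the prostate secretory list, 10 of 15 genes matched a RefSeq promoter of GRCm38.p6, as did 10 of 12 on the seminal vesicle list. The window was 300 bases, from 250 before to 50 after the annotated start. It was searched on both strands for AGAACA, the core hexamer of androgen response elements, and for the palindrome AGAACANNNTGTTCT, which holds that hexamer on each strand. The hexamer occurred in 6 of the 10 prostate genes (60%), in 7 of the 10 seminal vesicle genes (70%) and in 5750 of 27025 genes with a promoter in the table (21.3%). The 7 include Svs3a and Svs3b, and also Svs5 and Svs6, pairs with nearly the same sequence, so these matches are not independent. The shares were not tested against each other. The palindrome occurred in neither list and in 3 promoters in all. Below are the 250 bases before the start for the genes of each list that hold a hexamer there and ranged most widely over the 8 libraries. Capitals mark AGAACA or its reverse complement TGTTCT. The positions are chrX:77853501-77853750 on the minus strand for Pbsn, chr4:122689009-122689258 on the plus strand for 9530002B09Rik, chr6:42038144-42038393 on the plus strand for Sva and chr2:164316501-164316750 on the plus strand for Svs6.
Pbsn: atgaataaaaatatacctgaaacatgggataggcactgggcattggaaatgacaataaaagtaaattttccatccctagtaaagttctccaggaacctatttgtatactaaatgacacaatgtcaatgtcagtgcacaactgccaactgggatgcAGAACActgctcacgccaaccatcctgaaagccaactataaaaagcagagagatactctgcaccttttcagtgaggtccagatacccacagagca
9530002B09Rik: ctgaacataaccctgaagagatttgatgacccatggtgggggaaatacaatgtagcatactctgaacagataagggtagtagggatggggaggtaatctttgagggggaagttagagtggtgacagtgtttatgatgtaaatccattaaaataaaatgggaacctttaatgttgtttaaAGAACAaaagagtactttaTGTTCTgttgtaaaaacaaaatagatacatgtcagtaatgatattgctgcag
Sva: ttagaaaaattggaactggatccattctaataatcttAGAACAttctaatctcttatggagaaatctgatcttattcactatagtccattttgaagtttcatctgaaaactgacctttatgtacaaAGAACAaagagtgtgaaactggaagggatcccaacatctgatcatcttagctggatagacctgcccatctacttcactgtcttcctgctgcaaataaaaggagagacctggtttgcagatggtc
Svs6: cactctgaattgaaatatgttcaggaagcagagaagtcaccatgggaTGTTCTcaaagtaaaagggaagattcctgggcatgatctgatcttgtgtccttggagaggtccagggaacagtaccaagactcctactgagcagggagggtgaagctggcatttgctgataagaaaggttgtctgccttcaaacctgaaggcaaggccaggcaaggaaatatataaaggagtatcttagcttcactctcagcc
The stretch before Sva and that before 9530002B09Rik hold 2 hexamers each, and the other stretches hold 1 each. These matches describe the letters only, and binding was not measured here.

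Uty, for which the hairpin is named, was looked at first. It measured 9.55, 9.27, 9.04 and 9.29 in the SVE libraries and 9.12, 9.12, 9.09 and 9.29 in the construct+UTY_sh libraries. The libraries of the groups overlapped, and the difference was -0.14 (SE 0.11, 95% interval -0.37 to 0.10). Uty was 10.31, 10.29, 10.07 and 10.27 in the libraries with the construct alone, above all 4 libraries with both vectors, and limma with Benjamini-Hochberg adjustment called that difference of -1.08 (SE 0.11, adjusted p = 1.37e-07). With the hairpin alone Uty was 9.16, 9.22, 9.52 and 8.98, a difference from SVE of -0.07 (SE 0.11, interval -0.30 to 0.16), and in PE it lay between 10.13 and 10.45. So the libraries fell at 2 levels, a lower one in SVE, UTY_sh and construct+UTY_sh and a higher one with the construct alone and in PE, and a lower level than in SVE was not detected in either group with the hairpin. Ehmt2 lay between 11.26 and 11.39 in SVE and between 11.32 and 11.43 in construct+UTY_sh, a difference of 0.04 (SE 0.06, interval -0.08 to 0.16).

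**Figure D1:**
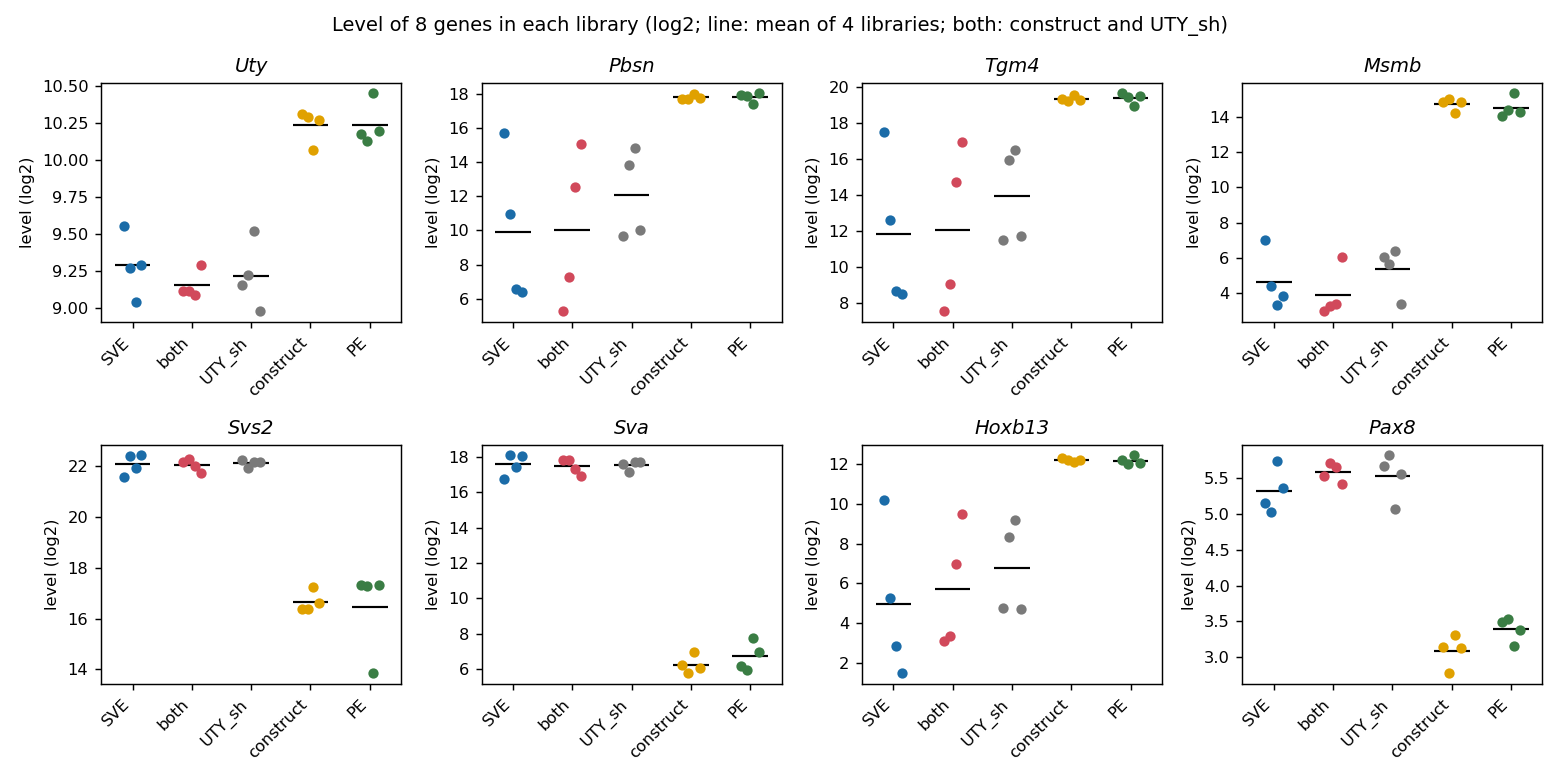
Log2 level (vertical axis, a separate scale per gene) of 8 genes in each library of the 5 groups; points are libraries and lines are means of 4. For every gene shown, the construct+UTY_sh points lie among or beside the SVE points, and for Pbsn they spread from 5.29 to 15.06.

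Across all genes the groups did not separate. Of 13456 genes, 0 (0%) had an adjusted p below 0.05 by limma with Benjamini-Hochberg adjustment, and the smallest adjusted p was 0.211. At an unadjusted p below 0.05 there were 557 genes (4.14%), 248 higher (1.84%) and 309 lower (2.3%). The libraries of the groups did not overlap for 327 genes (2.43%), 155 higher (1.15%) and 172 lower (1.28%). The fit on these 8 libraries alone also called 0 genes, with a smallest adjusted p of 0.425. The unadjusted count rested on single libraries: it was 332 without SVE replicate 2, 333 without construct+UTY_sh replicate 3 and 1058 without SVE replicate 3, with 0 called each time. Without the libraries rich in Pbsn the fit again called 0, the smallest adjusted p was 0.813, and 665 genes had an unadjusted p below 0.05.

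The intervals show how large a difference the libraries leave possible. The 95% interval lay within 1 log2 unit of 0, that is within 2-fold, for 12760 genes (94.8%), and within 0.5 for 10276 (76.4%). The median width on each side of the difference was 0.22. Precision depended on the level: of 813 genes with a mean of at most 5 over the 8 libraries, 62.4% had an interval within 1, and of 4190 genes between 9 and 11, 99.2% had one. For 55 genes the interval reached at least 2 on each side, so a 4-fold difference could not be seen in them. Among the 20 widest intervals, 10 belonged to prostate or seminal vesicle secretory genes, led by Sbp with 5.11 and Sbpl with 4.94 on each side. The statement that the groups were close therefore holds for most genes of middle and high level, and not for most prostate products.

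The differences were small beside those of the construct alone. The median absolute difference from SVE was 0.0756 for construct+UTY_sh, 0.353 for the construct alone and 0.0643 for UTY_sh. A difference of 1 or more was seen for 6, 2293 and 30 genes, and one of 2 or more for 0, 829 and 6. These comparisons share the 4 SVE libraries. The direct test between construct+UTY_sh and the construct alone is also the test of whether their differences from SVE differ, and limma called 8580 genes in it (63.8%), 4223 higher and 4357 lower with both vectors. Between construct+UTY_sh and UTY_sh the count was 0 genes (0%), the smallest adjusted p by limma was 0.99996, and 217 genes (1.61%) had an unadjusted p below 0.05. Between the construct alone and SVE limma called 62.3% of genes. Of the 2249 of these that were also at least 2-fold different, the interval with both vectors excluded the construct's own difference for 2235, and lay within 1 of 0 for 1748. These genes were picked for a large difference with the construct, whose error is left out here. The counts therefore describe and add no support to the direct test.

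**Figure D2:**
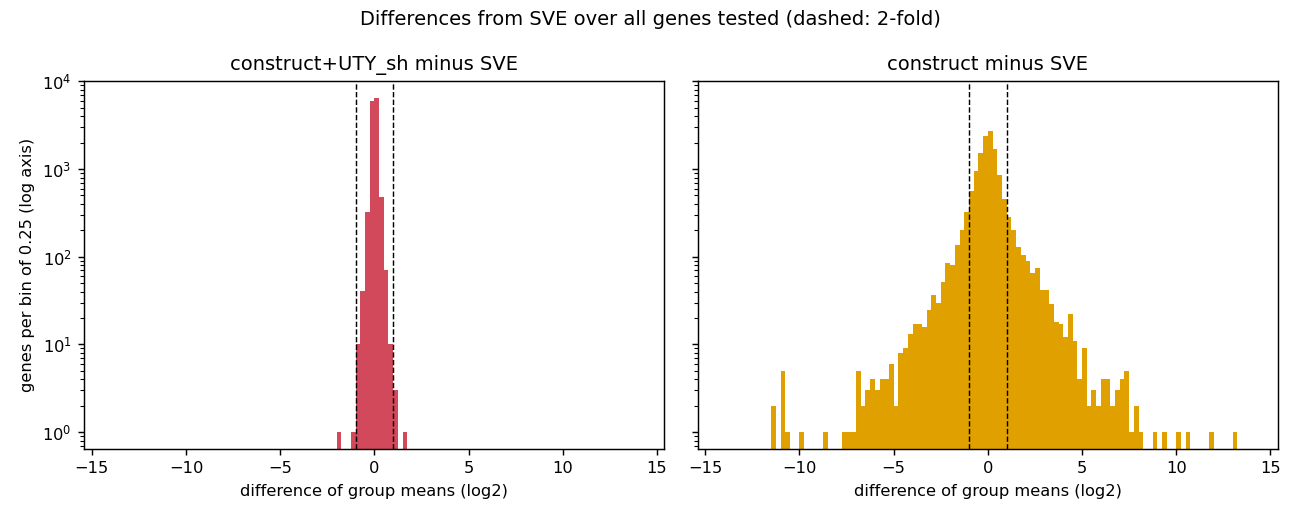
Number of genes (log axis) by log2 difference of group means from SVE, in bins of 0.25, for construct+UTY_sh on the left and the construct alone on the right; dashed lines mark 2-fold. With both vectors 6 genes lie at or past those lines, and with the construct alone 2293.

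Some prostate secretory genes varied widely inside each group: Pbsn, Tgm4, 9530053A07Rik, 9530002B09Rik, Azgp1 and Pnliprp1 each spanned between 6.83 and 9.86 log2 units, while Apof and Folh1 spanned at most 0.94. All 15 passed the filter on low values, but Sbp, Sbpl, Wfdc3, Spink5 and 5430419D17Rik did so only through libraries of other groups. These genes lay near the table's floor in both groups compared, where differences are understated, so they say little about this comparison. Msmb, Defb50 and Pnliprp1 reached 5 in some of the 8 libraries compared, but in too few to pass without other groups. Most of their values were low too. Of all 15, none was called and none had an unadjusted p below 0.05. With the genes near the floor counted, 8 differences were above 0 and 7 below, with a median of 0.13 and a range from -0.73, for Msmb, to 0.44. Over all genes tested the median difference was 0.01. Only 2 of the 15 intervals, those of Apof and Folh1, lay within 1 of 0, and Folh1 was higher here than in PE. Against the construct alone, 14 of the 15 were called lower and Folh1 higher, beside 32.4% and 31.4% of all genes.

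Pbsn encodes probasin, an androgen-driven secretory protein of the rodent prostate. It measured 15.71, 10.94, 6.59 and 6.43 in SVE and 5.29, 7.27, 12.56 and 15.06 in construct+UTY_sh. On a linear scale these were 23.3%, 0.852%, 0.0418% and 0.0376% of the PE mean in SVE, and 0.0170%, 0.0670%, 2.63% and 14.9% in construct+UTY_sh. Each group thus held a library with a large share of the prostate level and others near none, and the ranges overlapped almost fully. The difference of 0.13 had an SE of 1.96 and an interval from -3.99 to 4.25, and it was 0.39 without the libraries rich in Pbsn. The construct alone gave 17.69 to 17.96.

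Tgm4, the prostate transglutaminase, had the same layout, with 17.51, 12.63, 8.64 and 8.52 in SVE and 7.55, 9.06, 14.75 and 16.95 in construct+UTY_sh. The uncharacterised 9530053A07Rik was the most abundant transcript of the prostate grafts, and measured 19.31, 14.47, 10.50 and 10.25 in SVE and 9.03, 10.77, 16.96 and 18.87 in construct+UTY_sh. 9530002B09Rik gave 14.24, 9.47, 5.57 and 5.20 against 3.74, 5.68, 11.16 and 13.60. In all of these SVE replicate 1 and construct+UTY_sh replicate 4 were the highest, and the libraries of the groups were interleaved. Azgp1, a zinc-binding glycoprotein gene, and Pnliprp1, a lipase-related gene, followed the same order at their highest libraries, 10.04 and 9.60 for Azgp1 and 8.52 and 8.19 for Pnliprp1. Differences for these genes lay between -0.07 and 0.44, with SE between 1.43 and 1.99.

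Other prostate products did not share that layout to the same degree. Msmb, the beta-microseminoprotein gene, measured 7.0, 4.40, 3.32 and 3.84 in SVE and 2.97, 3.24, 3.37 and 6.04 in construct+UTY_sh, at most 0.509% of the PE mean on a linear scale. Pbsn in SVE replicate 1 reached 23.3% of its PE mean, so that library held a far larger part of the prostate level of Pbsn than of Msmb. Defb50, a beta-defensin gene, reached 8.63 in SVE replicate 1 and 7.85 in construct+UTY_sh replicate 4, which were 1.62% and 0.943% of the PE mean. Apof, an apolipoprotein gene, lay between 7.15 and 7.82 in SVE and between 6.75 and 7.69 in construct+UTY_sh. Its difference of -0.22 (SE 0.21, interval -0.67 to 0.23) lay well short of the 2.61 between the construct alone and SVE.

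The rest of the prostate list was low in both groups or pointed the other way. Sbp and Sbpl, close copies that encode spermine-binding proteins, lay between 1.42 and 3.45 in all 8 libraries. They had the widest intervals of all genes, because the fit shares its spread with groups in which they varied: Sbp was 18.48, 18.53, 8.46 and 18.22 with the construct alone. Wfdc3, Spink5 and 5430419D17Rik lay between 1.53 and 4.56, near the table's floor, where differences are understated. Folh1, which encodes prostate-specific membrane antigen, was between 5.18 and 5.86 in SVE and between 5.35 and 5.72 in construct+UTY_sh. On a linear scale Folh1 was 395% to 634% of the PE mean in SVE and 444% to 576% in construct+UTY_sh. Despite its place on the list, it was thus higher in these grafts than in prostate grafts. It was lower with the construct alone, at 2.60 to 3.48, and its difference between both vectors and the construct alone, 2.43 (SE 0.22, adjusted p = 3.75e-08 by limma with Benjamini-Hochberg adjustment), was called.

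**Figure D3:**
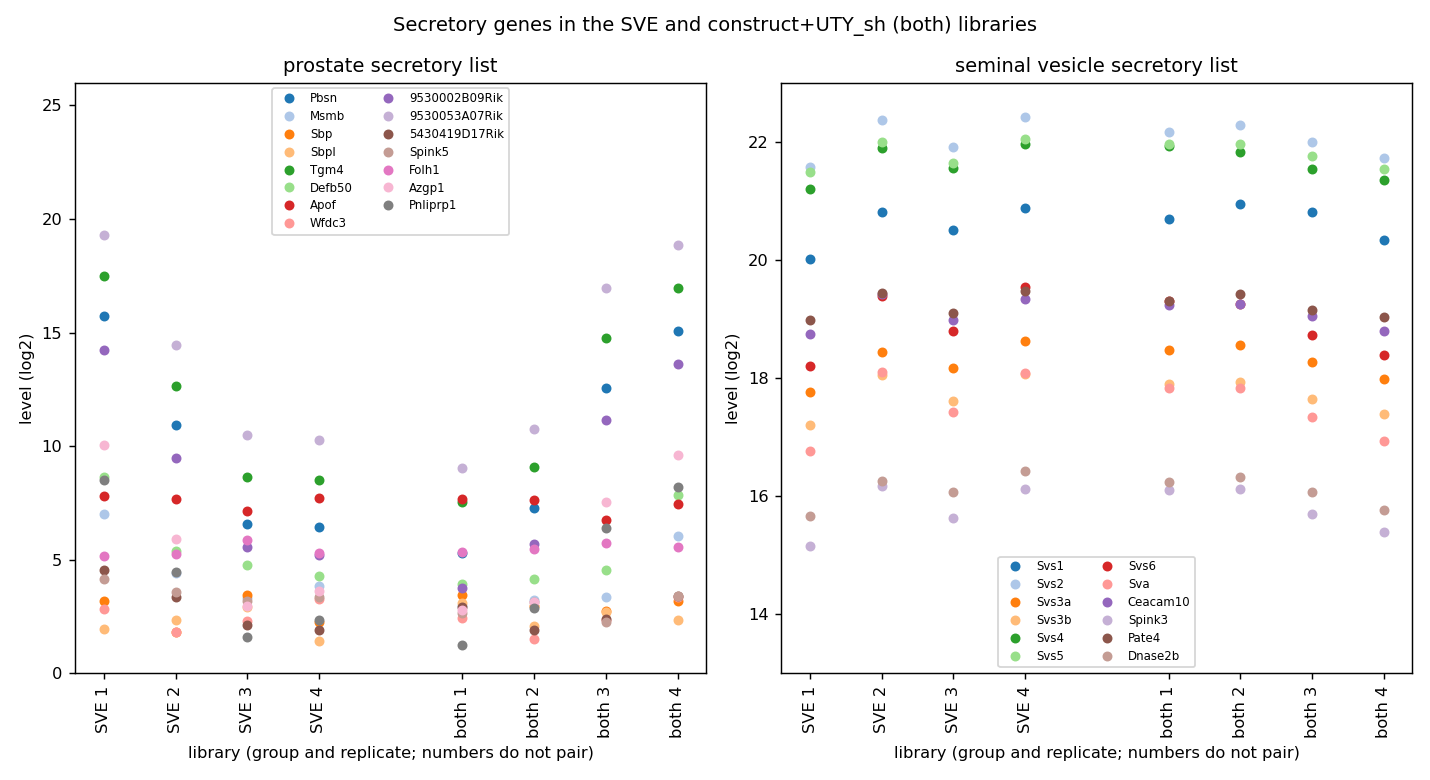
Log2 level (vertical axis) of the 15 prostate secretory genes (left) and the 12 seminal vesicle secretory genes (right) in each SVE and construct+UTY_sh (both) library; each point is a gene in a library. SVE 1 holds the highest value of its group for 11 of the 15 prostate genes and the lowest for all 12 seminal vesicle genes, and so does both 4.

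The seminal vesicle secretory genes were high in both groups. All 12 were tested, 0 were called and 0 had an unadjusted p below 0.05, with 5 differences above 0 and 7 below. Their median was -0.01 and their range -0.11 to 0.15, and 9 of the 12 intervals lay within 1 of 0. Against the construct alone 11 of the 12 were called higher (31.4% of all genes were), by a list median of 10.89.

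Svs2, which encodes a main protein of the copulatory plug, was the most abundant gene in all 8 libraries. It measured 21.57, 22.37, 21.92 and 22.42 in SVE and 22.17, 22.28, 21.99 and 21.72 in construct+UTY_sh, against 16.38 to 17.23 with the construct alone. Its difference from SVE was -0.03 (SE 0.67, interval -1.44 to 1.39). The values with both vectors all lay inside the range of the unmodified grafts and apart from those with the construct. Sva, another seminal vesicle secretory gene, gave 16.76, 18.09, 17.42 and 18.09 in SVE and 17.83, 17.82, 17.33 and 16.93 with both vectors, against 5.77 to 6.97 with the construct alone. Its difference from SVE was -0.11 (SE 0.37, interval -0.88 to 0.66), and that from the construct alone was 11.23 (SE 0.37, adjusted p = 3.47e-14 by limma with Benjamini-Hochberg adjustment).

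Svs1 averaged 20.55 ± 0.40 in SVE (SD, n = 4) and 20.70 ± 0.26 with both vectors. The pairs of means were 21.65 and 21.66 for Svs4, 21.79 and 21.80 for Svs5 and 18.98 and 18.92 for Svs6. Their differences were below the SD of either group. The close copies Svs3a and Svs3b differed from SVE by 0.07 and -0.02, Ceacam10, a carcinoembryonic antigen family gene, by -0.04, and Dnase2b, a DNase II family gene, by -0.01. Pate4 gave -0.02. Spink3, a Kazal-type protease inhibitor gene, was 15.15 to 16.17 in SVE and 15.39 to 16.13 with both vectors. Its interval of -4.48 to 4.60 was wide because the shared spread includes construct libraries at 16.15, 16.23, 6.52 and 15.91, and Spink3 was the member not called against the construct. Within the groups, the libraries highest in prostate genes were lowest here: SVE replicate 1 and construct+UTY_sh replicate 4 had the lowest value of their group for 12 of 12 genes. On a linear scale Sva was 52.5% and 59.1% of the SVE mean in these libraries, and between 78.2% and 132% in the others.

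Regulators of the organs gave no called difference. Of 11 prostate and urogenital sinus regulators, 10 passed the filter (Foxa2 did not), none was called, and the differences lay between -0.13 and 0.77 with a median of 0.03. The highest belonged to Hoxb13, a posterior homeobox gene of the prostate, at 10.20, 5.26, 2.86 and 1.49 in SVE and 3.08, 3.33, 6.99 and 9.50 with both vectors. These values overlapped, and the SE was 1.57. Ehf, an epithelial ETS factor gene, differed by -0.13 (SE 0.12) and Klf5, a Krüppel-like factor gene, by 0.14. Of 8 Wolffian duct regulators 7 passed the filter (Lhx1 did not). They differed by -0.06 to 0.26, and all 7 intervals lay within 1 of 0. Pax8, a paired-box gene, measured 5.02 to 5.75 in SVE and 5.42 to 5.72 with both vectors, against 2.78 to 3.31 with the construct alone.

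No androgen response gene or chromatin enzyme gene was called either. All 11 androgen response genes were tested, with a median of 0.03 and a range of -0.24 to 0.21. Fkbp5, an androgen- and glucocorticoid-induced chaperone gene, differed by -0.24 (SE 0.22). All 16 genes of H3K27 and H3K9 enzymes were tested, with a median of -0.05, and all 16 intervals lay within 1 of 0. Kdm6a, the X-linked relative of Uty, differed by -0.11 (SE 0.07), Ehmt1, the partner of Ehmt2, by -0.09 (SE 0.06), and Kdm4a, a demethylase gene, by 0.11 (SE 0.07). Of 6 Y chromosome genes 4 were tested. Ddx3y, an RNA helicase gene, measured 10.89, 10.59, 10.23 and 10.49 in SVE and 10.32, 10.29, 10.28 and 10.62 with both vectors, a difference of -0.17 (SE 0.12). Against the construct alone Ddx3y differed by -0.96, near the -1.08 of Uty, while Eif2s3y, also Y-linked, differed by -0.05. Of the 4 tested, 2 were called lower against the construct alone and 0 higher, beside 32.4% and 31.4% of all genes. What sets the level of these genes was not tested.

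Markers of the cell types a graft can hold were examined over their whole lists. In luminal epithelium 7 of 8 differences were above 0 with a median of 0.05, and in basal epithelium 8 of 8 tested, with a median of 0.23. Krt14, a basal keratin gene, measured 8.35, 8.67, 8.53 and 8.87 in SVE and 8.94, 9.10, 9.16 and 8.98 with both vectors. These libraries did not overlap, yet the difference of 0.44 (SE 0.20, interval 0.03 to 0.85) was not called. Krt5 differed by 0.25 (SE 0.13) and Col17a1, a hemidesmosome collagen gene, by 0.33 (SE 0.17), with overlapping libraries. Dsg3 did not pass the filter. Summed over the 9 basal markers, the log2 level was 11.94 to 12.35 in SVE and 12.17 to 12.34 with both vectors, so the groups overlapped.

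All 12 smooth muscle genes had differences above 0, from 0.08 to 0.24 with a median of 0.19, and none had an unadjusted p below 0.05. Lmod1, a leiomodin gene, gave 11.09, 11.34, 11.65 and 11.57 in SVE and 11.68, 11.62, 11.68 and 11.49 with both vectors. Myl9, a myosin light chain gene, differed by 0.21 (SE 0.13) and Smtn, the smoothelin gene, by 0.17 (SE 0.13). The summed level of the list was 17.05 to 17.73 in SVE and 17.31 to 17.67 with both vectors, so the SVE range enclosed the other. Against the construct alone all 12 were called higher, beside 31.4% of all genes. Fibroblast and matrix genes gave 8 of 10 above 0 with a median of 0.10, and endothelium 4 of 7 with a median of 0.01.

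Differences of adipocyte markers were mostly below 0, in 5 of 6 tested, with a median of -0.24, or -0.45 without the libraries rich in Pbsn. They were most spread out in SVE: Plin1, a lipid droplet gene, measured 3.65, 6.22, 4.71 and 3.31 there and 2.98, 3.70, 4.67 and 4.41 with both vectors. Adipoq, the adiponectin gene, was 4.19, 7.01, 5.41 and 3.17 against 4.20, 3.82, 4.87 and 5.11. SVE replicate 2 was the highest for both genes, and the differences of -0.53 (SE 0.53) and -0.44 (SE 0.59) were within the spread. Both genes reached 5 in too few of these libraries to pass the filter without other groups. Most of their values were low, towards the table's floor, where differences are understated. The summed adipocyte level was 8.29 ± 1.29 in SVE (SD, n = 4) and 7.98 ± 0.47 with both vectors.

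Leukocyte markers gave a median of -0.02 over 6 of 9 tested, and nerve and neuroendocrine markers 0.11 over 6 of 6. Of skeletal muscle markers 2 of 5 were tested, of squamous markers 2 of 8, of red blood cell markers 1 of 4 and of kidney markers 1 of 8. The markers left untested by the filter include Umod, Slc34a1 and Nphs1 of kidney and Hbb-b1 of red blood cells. Lrp2, an endocytic receptor gene, was the kidney marker tested, and it differed by -0.30 (SE 0.35). No marker of these lists was called, and the part of other cells in the small differences above was not tested.

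Among genes of cell states, Egr1, an immediate early transcription factor gene, measured 6.14, 6.96, 6.71 and 6.66 in SVE and 6.70, 7.38, 7.97 and 7.51 with both vectors. Its difference of 0.77 (SE 0.34, interval 0.06 to 1.48) was not called, and the groups overlapped by the lowest library with both vectors. The immediate early and heat shock list as a whole had a median of -0.03 over 8 of 9 tested. Interferon response genes were below 0 in 8 of 10, with a median of -0.13. Ifit1 differed by -0.51 (SE 0.44), with 5.83 to 6.77 in SVE and 5.60 to 6.39 with both vectors. All 13 endoplasmic reticulum stress genes had intervals within 1 of 0 and a median of -0.03. Of 10 proliferation genes 8 were tested, with a median of 0.09. Mcm5, a replication licensing gene, measured 5.72, 6.56, 7.10 and 6.53 in SVE and between 6.93 and 7.04 with both vectors, a difference of 0.51 (SE 0.25). Over all 23 lists no member was called, and those at an unadjusted p below 0.05 were Krt14 and Egr1, beside 4.14% of all genes.

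**Figure D4:**
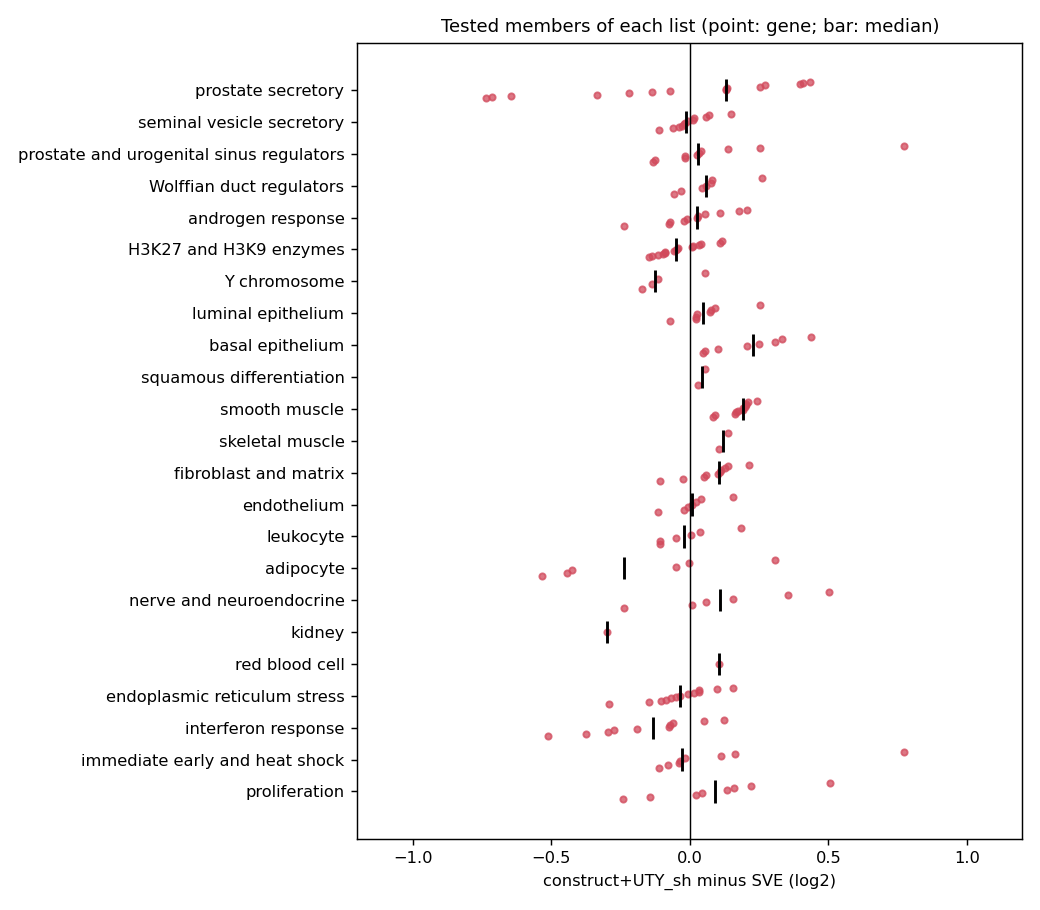
Log2 difference between construct+UTY_sh and SVE (horizontal axis) for each tested member of the 23 gene lists; points are genes and bars are list medians. All points lie within 1 of 0, those of the seminal vesicle secretory list between -0.11 and 0.15 and those of the prostate secretory list between -0.73 and 0.44.

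H19, the maternally expressed imprinted long noncoding RNA, had the largest absolute difference. H19 measured 6.40, 6.26, 6.88 and 5.84 in SVE and 5.34, 3.90, 4.40 and 4.73 with both vectors, with no overlap. The difference was -1.75 (SE 0.47, interval -2.73 to -0.77) and was not called. Levels were 4.28 to 5.48 with the hairpin alone and 3.41 to 3.96 with the construct alone, so all 12 modified libraries lay below the 4 SVE libraries. In PE H19 was 5.79, 5.77, 3.64 and 3.61. Ttn, the titin gene of striated muscle, measured 5.42, 5.44, 5.26 and 5.24 in SVE and 4.37, 4.21, 4.56 and 4.42 with both vectors, a difference of -0.95 (SE 0.22). Ttn lay between 3.94 and 4.47 with the hairpin alone and between 5.40 and 6.01 with the construct alone. The skeletal muscle genes Ckm and Acta1 differed from SVE by 0.14 and 0.11, in the other direction from Ttn.

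The following genes, also among those with the smallest p, differed by at most 0.45 in either direction. Zxdb, a zinc finger gene, measured 7.32, 7.36, 7.19 and 7.33 in SVE and 6.74, 6.93, 6.86 and 6.86 with both vectors (difference -0.45, SE 0.10). Rpl13, a ribosomal protein gene with many processed copies among which reads may be split, differed by -0.33 (SE 0.08). C78339, Rwdd4a and the chromatin ATPase gene Atad2 differed by -0.22, -0.21 and -0.26. Higher with both vectors were Cntnap1, a contactin-associated protein gene, by 0.43 (SE 0.11), Tmem205 by 0.23 and Dad1, a subunit of oligosaccharyltransferase, by 0.19. None of these passed, and the libraries of the groups did not overlap for any of them.

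Of the genes at a mean of at least 5 with separated libraries, positive differences included 0.52 for Grik3, a glutamate receptor gene, and 0.51 for both Adamts6, a secreted metalloprotease gene, and Acap1, an Arf GTPase-activating protein gene. Cyp51, a cholesterol synthesis gene, and Gm694 each gave 0.50. The negative side held H19, Gm6568 at -0.50, Zxdb, 5031434O11Rik at -0.45, Dleu2, a long noncoding RNA gene, at -0.37 and Usmg5 at -0.35. Acap1 measured 5.50, 4.91, 5.09 and 5.13 in SVE and 5.75, 5.57, 5.73 and 5.63 with both vectors, while the construct alone gave 3.98 to 4.23, on the other side of SVE. All genes of this and the preceding paragraphs were picked by this comparison itself, so their values describe it and add no support.

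**Figure D5:**
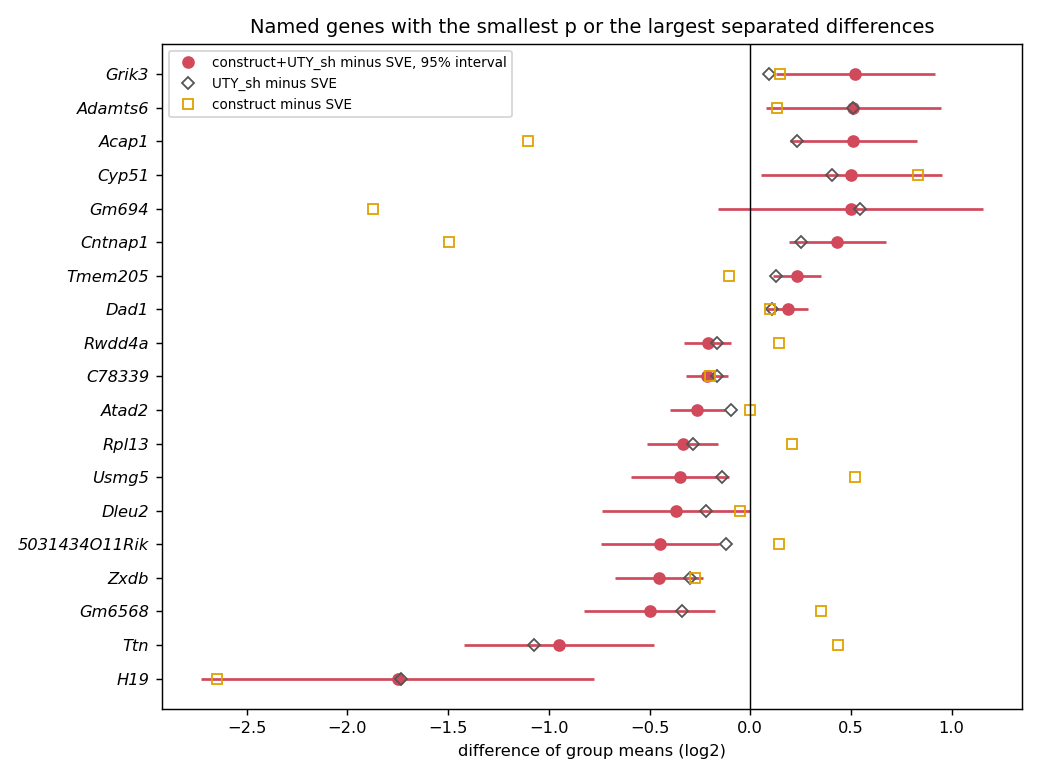
Log2 differences of group means from SVE (horizontal axis) for the named genes with the smallest p or the largest separated differences: filled circles with 95% intervals for construct+UTY_sh, diamonds for UTY_sh and squares for the construct alone. H19 lies at -1.75 with both vectors, and most other genes within about 0.5 of 0; all 3 comparisons share the SVE libraries.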

How the data were processed

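Libraries were prepared from poly-A RNA with the TruSeq kit, per the labels' protocols. Tools in the submitters' processing notes are TopHat2 2.0.4, Cufflinks 2.0.2, DESeq and bcl2fastq 1.8.4, and their genome build is mm9. What each tool did, which annotation was used and how rat reads were treated is not given in the sources used here. Values that the authors deposited are log2 values per gene and library, from 0.0193 to 22.42. Antilogs between log2 values of 11 and 13 fell on whole numbers of reads for 100% of values (within 0.1) once divided by each library's unit, which gave each library's depth. Low values were compressed towards a floor: the 5801 genes whose mean was under 2.5 centred on 2.27. Ties within a library made up 12.9% to 22.2% of values between 11 and 12 but at most 0.0388% below 10, so low values differ by less than 1 read and no count test was run; the cause was not tested. Dates stood in place of 25 gene symbols, and these rows were kept under those names.

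The comparison used limma 3.58.1 in R 4.3.3: all 20 libraries, 1 mean per group, a trend of variance on level and Benjamini-Hochberg adjustment over the 13456 genes with a value of at least 5 in at least 4 libraries. An adjusted p below 0.05 is called. The plan allowed for linear or log values; the values were already log2, so no pseudocount was added. The fit was tested on simulated data. Libraries were numbered in accession order only to name them. Distances between libraries are median squared differences of recovered reads over their counting variance.

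Members, lists and tests were chosen with earlier results of these data known. Named genes are Uty, Ehmt2, the 12 genes with the smallest p, the 6 largest separated differences in each direction, all secretory list members and up to 3 members of every other list by smallest p. Some genes that this rule names, the construct's own among them, were kept in the fit and in the counts and are not reported here. Promoters are RefSeq's for GRCm38.p6, and no coordinate was taken from mm9. Alternatives were other filters, rescalings, moderation, library weights, the 8 libraries alone, and leaving out libraries.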

Additional observations from a re-analysis of the deposited data

Results flagged for a closer look

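Between the comparison of construct+UTY_sh with SVE and that of the construct alone with SVE, the differences themselves differed for 8580 genes by limma's direct test of construct+UTY_sh against the construct alone.

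Single libraries stood apart from the other 3 of their group for some named genes, by the gap to the nearest library as a share of the group's range (Dixon's test at the 95% level). This happened in 11 of 206 groups examined, and chance alone gives about 1 in 20. Among construct+UTY_sh libraries, replicate 4 was apart on the high side for Uty (0.842), Ddx3y (0.866), Msmb (0.867) and Defb50 (0.838). Since the count of 11 is near that share, nothing is read into which genes these are. Replicate 1 was low for Gm6568 (0.903) and replicate 2 low for Cdh5, an endothelial cadherin gene (0.84). Among SVE libraries, replicate 1 was low for Adamts6 (0.904) and replicate 2 high for Rwdd4a (0.919). SVE replicate 3 was low for Dad1 (0.858) and high for Folh1 (0.833) and for Col1a2, a collagen gene (0.845).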

How the results depend on the processing

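The comparison with SVE called 0 genes under all 17 alternatives, with smallest adjusted p-values by limma from 0.154 without a variance trend to 0.9997 without construct+UTY_sh replicate 1. No named gene was called under any of them. The 557 genes at an unadjusted p below 0.05 became 1029 of 23284 with no filter and 959 with library weights, and lay between 332 and 1058 when 1 library was left out: 332 without SVE replicate 2, 333 without construct+UTY_sh replicate 3 and 1058 without SVE replicate 3. Intervals within 1 of 0 numbered 12549 to 12643 with 1 library left out and 12956 in the fit on 8 libraries. The comparison with the construct alone called 7980 to 9095 genes, and that with UTY_sh 0. Intervals were wider at low levels, with a median of 0.63 on each side for genes at a mean of at most 5 and 0.16 between 9 and 11; the part of depth in this was not tested. No paired analysis was possible because the labels carry no replicate numbers.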

Other observations

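Besides H19, the genes with an absolute difference of 1 or more from SVE included the following 4, named after their values were seen. Rps26, a ribosomal protein gene, took a high or a low level in libraries of every group: 9.68, 5.97, 6.29 and 5.26 in SVE, 5.82, 8.62, 9.64 and 9.60 with both vectors, 9.55, 9.50, 8.61 and 6.05 with the hairpin, 8.81, 5.48, 9.24 and 5.98 with the construct and 9.71, 6.10, 5.06 and 8.97 in PE. Its difference of 1.62 had an SE of 1.24. Spock3, a proteoglycan gene, differed by -1.13, Kcnc1, a potassium channel gene, by 1.09 and Cyp2j13, a cytochrome P450 gene, by 1.21, all with overlapping libraries at group means between 2.24 and 4.18.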
